A study of Homo sapiens and Mus musculus with 66 samples.

Results

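The clustered protocadherin genes of human chromosome 5 were followed through the lamina-associated regions of 10 conditions of HCT116 and K562 cells. The members are the protein-coding genes in the megabase of chromosome 5 that begins at 140 Mb in hg19 (GENCODE release 44 placed on that build) whose symbols begin with PCDHA, PCDHB or PCDHG. They number 53 of 20163 protein-coding genes, with 15 in the alpha group, 16 in the beta group and 22 in the gamma group.

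Protocadherins are cadherin-like adhesion molecules of the cell surface, and the clustered ones are known best from neurons, where each cell uses its own small combination of them to tell its own processes from those of other cells. Each alpha and gamma gene has a variable first exon with its own promoter, which is spliced to constant exons at the end of the group, whereas most beta genes are complete in a single exon. Promoters of the cluster are chosen with the help of CTCF and cohesin, which fold distant enhancers onto them, and silent promoters carry DNA methylation and heterochromatin marks. Chromatin at the nuclear lamina, the protein mesh under the nuclear envelope, is for the most part gene-poor and silent.

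Lamin-B1 cTSA-seq marks proteins close to lamin-B1 with biotin and sequences the chromatin pulled down with streptavidin beside an input. HCT116, a colorectal carcinoma cell line, was profiled as a bulk culture, whose number of cells the labels do not give, and at 1000000 (1e6), 200000 (200k) and 50000 (50k) cells. It was also sorted in G1, S and G2 from cycling cultures, and in G1 at 90 min (90m G1) and 180 min (180m G1) after release from nocodazole, a drug that arrests cells in mitosis (16 h by the labels, while the study's methods state a longer exposure). K562, a leukemia cell line, was profiled in bulk, and lists made by the authors set these regions beside published K562 TSA-seq data, a related method. Neither cell line is of neuronal origin.

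The labels hold 2 input and 2 pull-down libraries for each condition except 200k and 50k, with 1 input and 2 pull-down libraries, and 1e6, with 1 of each, although its list is deposited as a consensus and which other library entered it is not given in the sources used here. The deposited region lists are merged over these libraries and give a start and an end for each region, in windows of 100 kb. They hold no read count and no signal. Depth and the spread between replicates are therefore unknown, every value below is a single value per condition, and no test between conditions was possible. A window that is not listed was either weaker or not called in every replicate, and these cases cannot be told apart. Since a window holds several members, their calls are not independent.

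The cluster runs from PCDHA1 to the end of the gamma group at chr5:140165721-140892544, a span of 727 kb, with all members on the plus strand. The alpha genes occupy chr5:140165721-140391932 (226 kb), the beta genes chr5:140430959-140628933 (198 kb) and the gamma genes chr5:140710081-140892544 (182 kb). The spans of the 15 alpha genes overlap, because each reaches from its own first exon to shared constant exons of 59 and 89 bases at chr5:140358534-140358592 and chr5:140362060-140362148, both present in 15 of 15 genes. The last alpha constant exon, of 2721 bases, was annotated with identical bases in 13 of them. The spans of PCDHA6 and PCDHA7 ended at 140391929 instead of 140391932, so an exon there could not be counted as identical. In the gamma group the constant exons of 59, 89 and 2029 bases were shared by 22 of 22 genes. PCDHA1 thus spans 226 kb, PCDHGA1, the first gamma gene, 182 kb, and PCDHGC5, the last, 23.9 kb, whereas PCDHB15, the last beta gene, spans 3.97 kb.

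Short words recur in the sequence before the starts of these genes, with a different word in each group. Among all words of 8 letters on either strand in the 250 bases before the start, the word held by most members was taken for each group (of words held equally often, the rarest over all promoters), a choice made after the sequences were seen. In the alpha group this was ATGTCGCT, in 10 of 15 genes and in 0.233% of the same windows of all 20163 genes. In the beta group it was GTGGCGCT, in 13 of 16 genes and in 1.13% of all windows. In the gamma group it was GCCGCTGT, in 10 of 22 genes and in 1.20% of all windows. No word was found in a member of another group. All of these words contain the 4 letters CGCT, so the words chosen for the groups differ around letters that they share. CGCT alone was in 49 of the 53 members, a larger share than the 70.9% of all windows. A word of 4 letters is thus common before genes in general, and this difference was not tested. Words overlap each other where they share letters, and a match is a description and not a binding site. The 60 bases around the word are printed for PCDHB3 and PCDHB4, which lie on either side of a region border of 50k cells, and for examples of each group that show how much of the neighbouring sequence is shared, in hg19, on the plus strand, with the word in capitals.
PCDHA1, chr5:140165657-140165716: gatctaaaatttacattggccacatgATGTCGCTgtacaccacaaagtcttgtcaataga
PCDHA12, chr5:140254815-140254874: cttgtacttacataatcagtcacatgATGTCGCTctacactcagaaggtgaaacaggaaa
PCDHB3, chr5:140479963-140480022: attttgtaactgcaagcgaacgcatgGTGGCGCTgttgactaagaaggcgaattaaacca
PCDHB4, chr5:140501291-140501350: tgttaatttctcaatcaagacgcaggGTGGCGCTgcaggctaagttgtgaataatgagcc
PCDHB15, chr5:140624868-140624927: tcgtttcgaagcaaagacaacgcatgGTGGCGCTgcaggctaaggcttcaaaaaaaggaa
PCDHGA1, chr5:140709958-140710017: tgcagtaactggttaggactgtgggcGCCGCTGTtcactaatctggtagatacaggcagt
PCDHGC3, chr5:140855435-140855494: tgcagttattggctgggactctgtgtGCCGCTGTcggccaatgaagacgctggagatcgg

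The word lay a median of 46 bases before the annotated start in the alpha group (range 22 to 200), 65 bases in the beta group (15 to 83) and 63.5 bases in the gamma group (31 to 97). Among the C-type members, which differ in sequence from the other variable genes of their groups, PCDHGC3 held the gamma word 53 bases before its start and PCDHGC4 held it at 31 bases. PCDHAC1, PCDHAC2 and PCDHGC5 held no match to the word of their group in this window, and neither did other members, namely PCDHA9, PCDHA11 and PCDHA13, the beta genes PCDHB1, PCDHB6 and PCDHB8, and the gamma A and B genes that are not among the 10 matches. For PCDHA9, PCDHA11 and PCDHGA8 the gene start (140227357, 140247768 and 140769724) lay more than 250 bases before the first exon (140227967, 140248542 and 140772200). The bases just before these 3 first exons were therefore not searched, and a word there would have been missed.

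The whole cluster lay in a lamina-associated region in bulk HCT116 cells. A region of 0.8 Mb, chr5:140100001-140900000, held all of the 53 members over their full lengths. Over all protein-coding genes, 11.5% were at least 50% inside the bulk regions. The region began 65.7 kb before PCDHA1 and 13.7 kb after ZMAT2, a zinc finger gene and the nearest other protein-coding gene before the cluster, and cut no gene there. It ended 7.46 kb after the last gamma gene, inside DIAPH1, a formin that builds actin filaments, of which 5.21% lay inside. Beside the members it held TAF7, a subunit of the general transcription factor TFIID, SLC25A2, a mitochondrial carrier of ornithine, AC005609.1 and ENSG00000279983, for 57 genes in all.

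With 200k cells the region held the beta genes and no other member. It covered chr5:140400001-140700000, and each of the 16 beta genes lay inside over its full length, whereas the 15 alpha genes and the 22 gamma genes were at 0%. The background of all genes was 5.47% in this list. Its start fell between the groups, 8.07 kb after the last alpha exon and 31.0 kb before PCDHB1. Its end fell 10.1 kb before PCDHGA1, inside TAF7, of which 99.4% was included.

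With 50k cells the region was shorter by 1 window. It covered chr5:140500001-140700000 and held 13 beta genes, PCDHB4 to PCDHB15 in genomic order, over their full lengths, beside a background of 6.35%. PCDHB1, PCDHB2 and PCDHB3 were at 0%, and so were all alpha and gamma genes. The border lay 16.6 kb after PCDHB3 and 1.4 kb before PCDHB4, so that both genes were within a distance of the border that is small beside the window of 100 kb. The border also separated genes with the same promoter word, which was in 2 of the 3 beta genes outside and in 11 of the 13 inside. The regions were thus nested, with that of 50k cells inside that of 200k cells and both inside that of bulk cells.

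**Figure D1:**
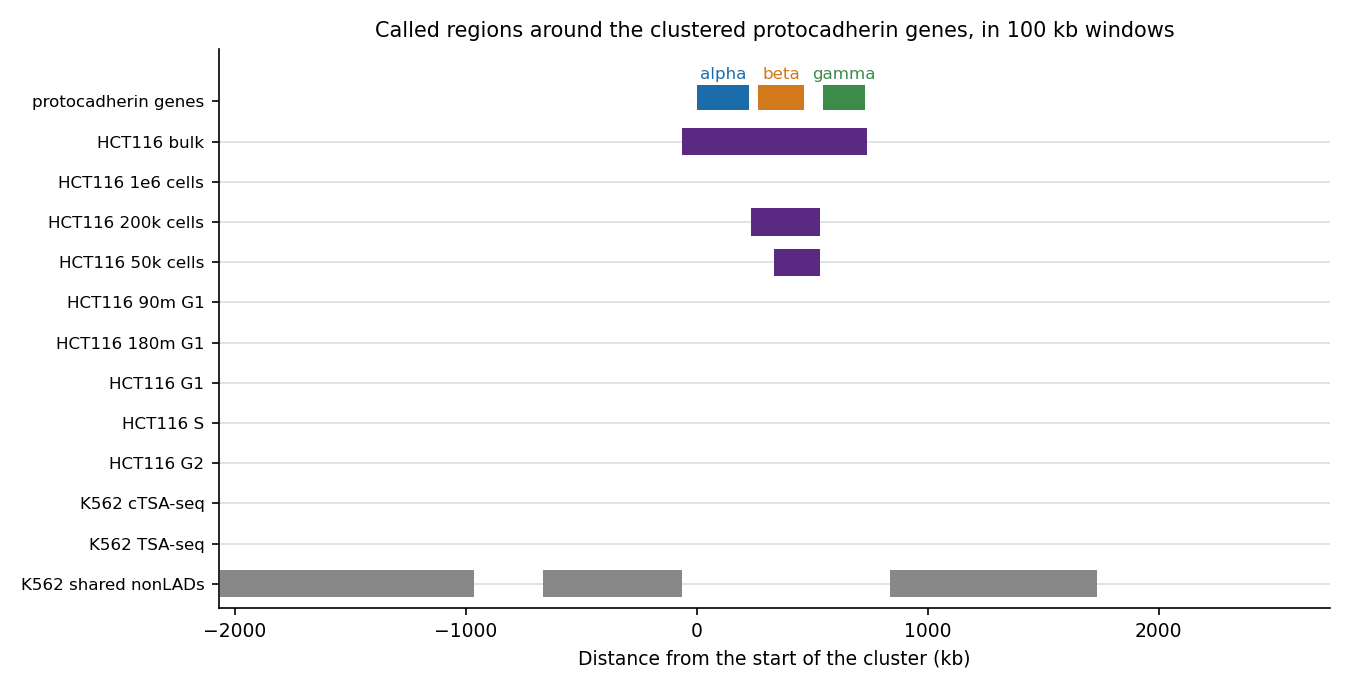
Map of called regions around the cluster, with the distance from the first base of PCDHA1 in kb on the horizontal axis and a row for each list. Purple bars are lamina-associated windows, and grey bars are windows of the K562 nonLAD list shared by both methods. The coloured bars on top are the spans of the alpha, beta and gamma genes, which the bulk region holds entirely and the 200k and 50k regions hold only in the beta part.

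At 1e6 cells no member had a base inside a region, beside a background of 5.22%. The order of cell numbers was therefore not the order of the calls, since the lists of 50k and 200k cells held beta genes and the list of 1e6 cells held none. The list of 1e6 cells was also shorter, at 656 Mb against 678 Mb for 200k cells, 706 Mb for 50k cells and 834 Mb for bulk cells. The part of list length or of the number of libraries in these differences was not tested. Among all genes, 7.32% were at least 50% inside in bulk and under 50% with 1e6 cells, and all 53 members were among them.

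No member had a base inside a region at any sorted stage of the cell cycle. This held for 90m G1, with a background of 17.4% of all genes, for 180m G1 with 5.67%, for G1 with 5.20%, for S with 5.79% and for G2 with 4.87%. The 90m G1 list was the shortest, at 527 Mb, although it held the largest share of genes among the HCT116 lists. Bulk HCT116 cultures hold cells of G1, S and G2 together, and the members were in the list of the bulk culture and in none of the lists of the sorted stages. Sorted and unsorted cells also differed in preparation, which cannot be told apart from cell cycle stage. The lists of 180m G1, G1, S and G2 were also shorter than that of bulk cells, at 634, 625, 693 and 618 Mb against 834 Mb. The list of unsorted 1e6 cells held no member either, and the part of list length was not tested.

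**Figure D2:**
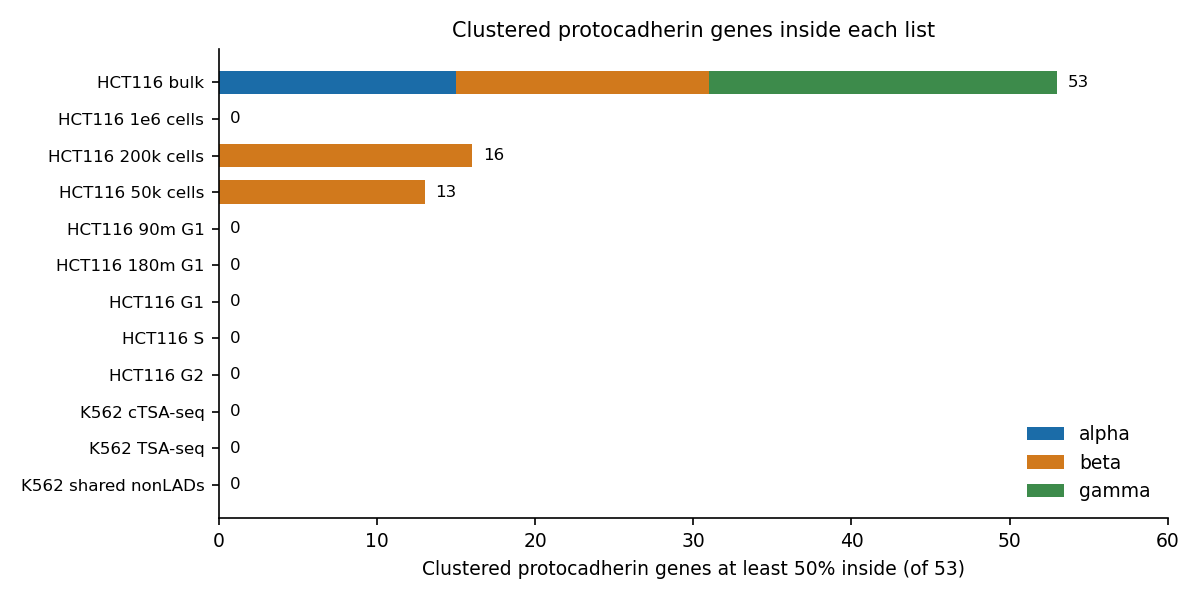
Number of clustered protocadherin genes at least 50% inside each list, on the horizontal axis, with bars split into alpha, beta and gamma genes. The bulk HCT116 bar reaches 53, the 200k and 50k bars are 16 and 13 and hold beta genes only, and all other lists are at 0.

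In K562 cells the cluster was in neither class. No member had a base inside the cTSA-seq regions, which held 11.7% of all genes, nor inside the regions called from TSA-seq data, with 9.63%. The members were likewise at 0% in the authors' list of nonLAD regions shared by both methods, which the paper describes as euchromatic. This list held 55.0% of all genes and 20.8% of the genome. It does not hold everything outside the lamina regions, since the authors' calls had 3 states, enriched, intermediate or noisy, and depleted. Which state the windows of the cluster had in K562 cells is not given. NonLAD regions lay on both sides of the cluster, at chr5:139500001-140100000 and chr5:141000001-141900000. The first ended at the base where the HCT116 bulk region began, and the other began 1 window after it ended. Of the 443 bulk regions of HCT116, 9 lay between K562 nonLAD regions in this way, with at most 1 window between them on either side. Genes at 0% in both the K562 cTSA-seq and the nonLAD lists made up 31.2% of all genes, and 28.9% when the TSA-seq list was added, so this state of all 53 members is common.

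Over the 10 lists the members fell into blocks of neighbours with the same pattern. The 15 alpha and 22 gamma genes were in the bulk list alone, a pattern of 1.38% of all genes, or 278, of which 37 were members. The 13 beta genes from PCDHB4 to PCDHB15 were in the bulk, 200k and 50k lists and no other, a pattern of 0.109% of all genes. They made up 13 of the 22 genes with it, and TAF7, SLC25A2 and ENSG00000279983 of the same region were among the other 9, as was FZD8, a receptor for Wnt ligands. PCDHB1, PCDHB2 and PCDHB3 were in the bulk and 200k lists only, which 0.0298% of all genes were, or 6 in all. No member lay partly inside a region in any list, so that the counts were the same whether 1 base, 50%, 80% or all of a gene, its first exon or its start site was asked to be inside.

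No other lamina region was called within 2 Mb of the cluster in any of the 10 conditions. The bulk region ended near both edges of the cluster, on a grid of 100 kb windows. The 200k and 50k regions ended within it. By bases, 100% of the cluster was inside regions in bulk HCT116 cells, 41.3% with 200k cells, 27.5% with 50k cells and 0% in every other condition. Of the 2 Mb before it, 3.29% was inside in bulk cells, and of the 2 Mb after it, 0.373%, all of which belonged to the region of the cluster itself, and both flanks were at 0% in the other 9 lists. In the K562 nonLAD list the order was the opposite, with 0% of the cluster, 81.7% of the 2 Mb before and 45.0% of the 2 Mb after. Of the 39 other protein-coding genes in the 2 Mb before, 37 were in that list, and of the 15 in the 2 Mb after, 11 were. None of these flanking genes was at least 50% inside a lamina region in any of the 10 conditions. PCDH1 and PCDH12, protocadherins that lie 340 kb and 431 kb after the cluster without being part of it, were at 0% in all lamina lists and 100% inside the nonLAD list.

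**Figure D3:**
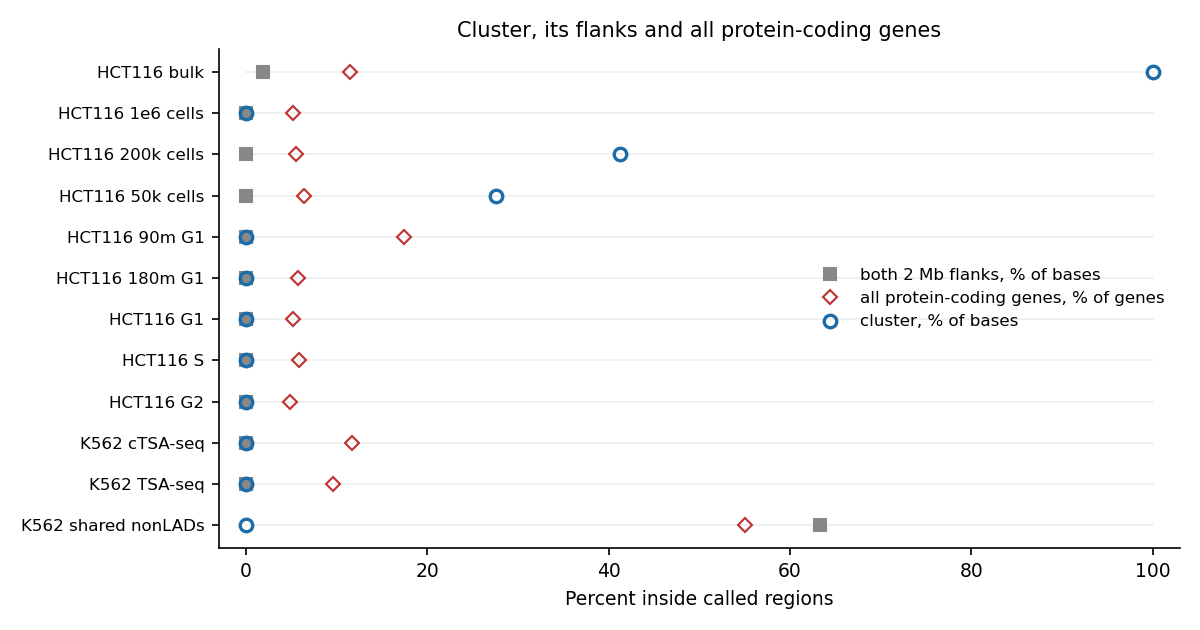
Percent inside the called regions, on the horizontal axis, for each list: circles are bases of the cluster, squares are bases of both 2 Mb flanks and diamonds are all protein-coding genes. In bulk HCT116 cells the cluster was at 100% and the flanks at 1.83%, and in the K562 nonLAD list the cluster was at 0% and the flanks at 63.4%.

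The nearest other lamina regions of chromosome 5 were far away in the lists that held the cluster and in those that did not. In bulk cells the nearest region before it, chr5:134800001-137000000, ended 3.17 Mb away, and the nearest after it, chr5:143600001-144300000, began 2.71 Mb away. With 1e6 cells these distances were 3.77 Mb and 2.91 Mb. In 90m G1 cells the next region after the cluster began 8.11 Mb away, at chr5:149000001-174500000, and in K562 cells it began 2.01 Mb away, at chr5:142900001-145000000. The region with the cluster was thus separate from its neighbours and not an extension of them.

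The bulk region of the cluster was denser in genes than any other bulk region. It held 71.2 genes per Mb, the next densest held 40 and the median over 443 regions was 1.67. By number of genes it was passed by 2 regions, with its 57 genes in 0.8 Mb beside a median size of 1.3 Mb, and 292 regions were larger. Overlapping gene spans of the alpha and gamma groups raise this count, since a first exon is counted there as a gene.

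The cluster's region was among the bulk regions with no base in the 1e6 and cell cycle lists, most of which were smaller. Of the 443, 115 had no base in the 1e6 list, 119 none in G1, 105 none in S, 124 none in G2, 166 none in 180m G1 and 281 none in 90m G1. In none of these 6 lists had 34 bulk regions a base, with a median size of 0.3 Mb. Only 1 of the 34 was larger, and 3 of them, including that of the cluster, had bases in both the 200k and the 50k lists. The 34 regions held 104 genes, of which 57 were in the region of the cluster, and the next richest held 7.

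**Figure D4:**
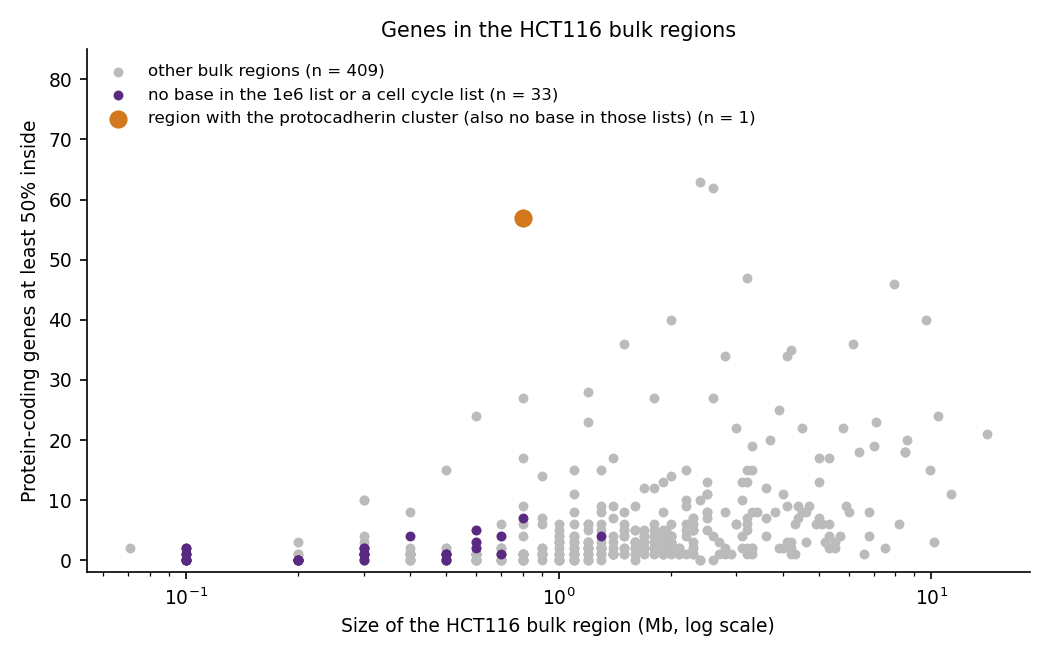
Size in Mb (log scale) and number of protein-coding genes at least 50% inside for each of the 443 regions of the bulk HCT116 list. Purple points have no base in the 1e6 list and the 5 cell cycle lists, and the orange point is the region with the protocadherin cluster, which has 57 genes in 0.8 Mb.

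By median GC content the cluster lay below its flanks and above the windows called in bulk cells, with overlapping ranges. The 8 windows that touch it had a median GC content of 40.8% (range 38.0 to 45.7), lower than the 44.7% and 43.6% of the 20 windows on either side, and higher than the median of 38.7% over the 8304 windows called in bulk cells, of which 67.7% were at or below the cluster's median. The flank windows ranged from 37.7% to 54.6% before the cluster and from 38.1% to 50.1% after it, and the bulk windows from 32.2% to 63.5%. Over all chromosomes the median was 39.8%. Windows called in bulk and not with 1e6 cells had a median of 42.8%. The windows of the 200k region had 38.0%, 40.9% and 41.2%, those of the alpha genes before it 39.5%, 40.8% and 39.3%, and those of the gamma genes after it 44.2% and 45.7%. The beta windows were thus lower in GC than the gamma windows, and overlapped the alpha windows.

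The CpG content was high for a lamina region. The ratio of observed to expected CpG, which is low where methylated CpG has been lost over evolution, had a median of 0.356 in the windows of the cluster, 0.250 before it, 0.240 after it, 0.189 in the windows called in bulk cells and 0.194 over chromosome 5. Windows at 140200001, 140700001 and 140500001 of the cluster, with 0.552, 0.5501 and 0.483, ranked 1, 2 and 3 among 1779 windows of chromosome 5. They held the starts of 10, 18 and 11 protein-coding genes, more than the other 5 windows of the cluster, which held 2 to 5. In the first exons alone the median ratios were 0.890 in the alpha group, 0.6502 in the beta group and 0.694 in the gamma group, and the median GC was 56.7%, 48.1% and 53.8%. The first exons of the beta group, which the 200k and 50k lists held, had the lowest medians of both. They were also longer, with a median of 3773 bases against 2532 in the alpha and 2598.5 in the gamma group, so the measures are unlike. By window this order was not seen. The windows of the 200k region had ratios of 0.319, 0.483 and 0.287, and the cluster windows outside it ranged from 0.251 to 0.552. The part of composition in the calls was not tested.

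**Figure D5:**
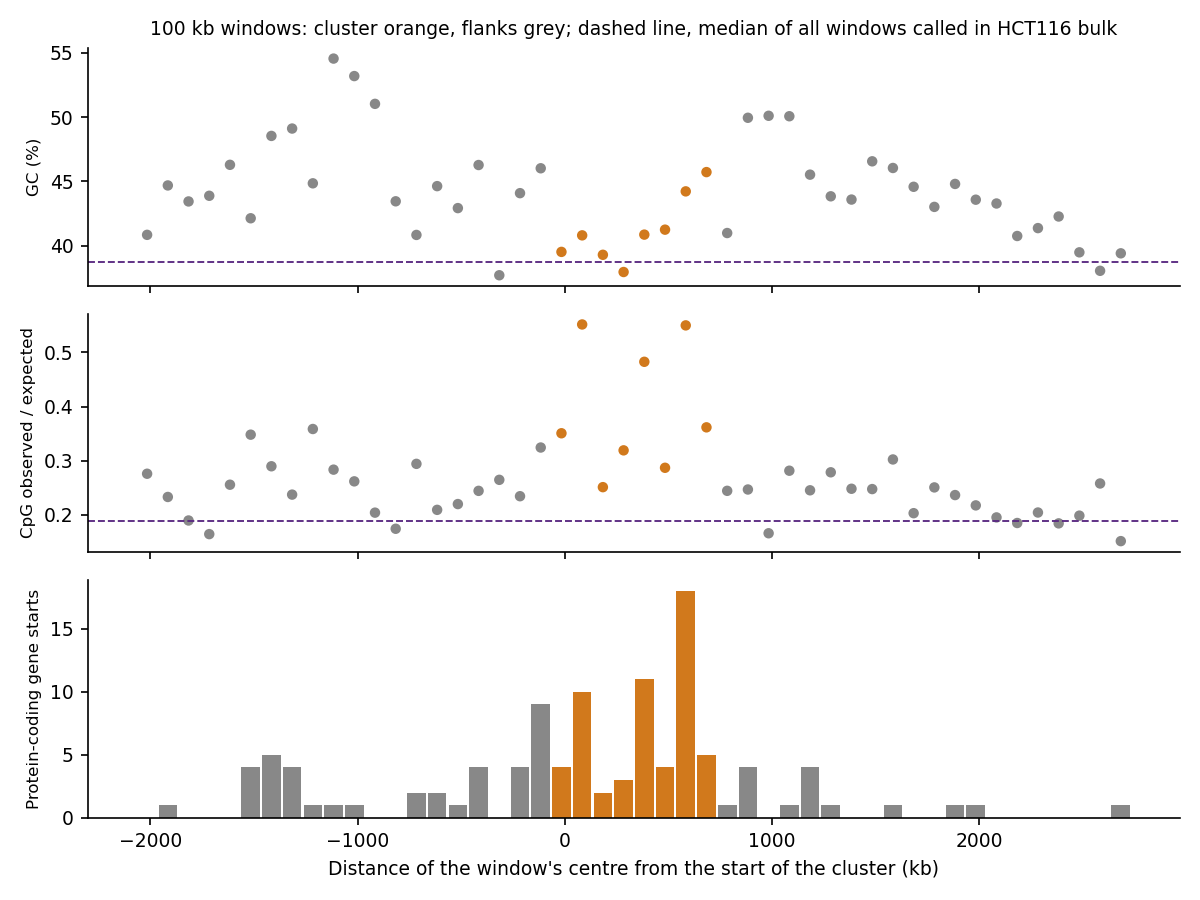
GC content, ratio of observed to expected CpG and number of protein-coding gene starts in windows of 100 kb, by the distance of the window's centre from the start of the cluster in kb. Orange marks the 8 windows of the cluster and grey the flanks, and the dashed lines are the medians of 38.7% GC and 0.189 over all windows called in bulk HCT116 cells, which lie below the CpG ratio of each cluster window.

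Some protocadherins outside the cluster were in the lists that held the cluster and in lists that did not. Of 13 nonclustered protocadherins, single genes on several chromosomes that also encode adhesion molecules, 5 were at least 50% inside in bulk HCT116 (beside 11.5% of all genes), 1e6 (5.22%), 200k (5.47%), G1 (5.20%) and G2 cells (4.87%), 4 with 50k cells (6.35%) and in S (5.79%), 3 in 180m G1 (5.67%) and 0 in 90m G1 (17.4%). The genes behind the count of 5 were not the same, since PCDH19 was at 45.0% in bulk and at 100% with 1e6 and 200k cells and in G1 and G2. In K562 cells 10 were inside by cTSA-seq (beside 11.7% of all genes) and 9 by TSA-seq (9.63%), while all clustered genes were at 0. Both K562 counts include PCDH11X of chromosome X and PCDH11Y of chromosome Y, at 100% each. Whether K562 cells hold a Y chromosome is not given in the sources used here, so the call of PCDH11Y is uncertain. PCDH17 was at 100% in every HCT116 list except 90m G1, where it was at 0%, and at 100% in K562 cells. PCDH15, which builds the tip links of hair cells in the inner ear, was also at 100% in these lists, but was at 0% in both 90m G1 and 180m G1. PCDH7, PCDH10, PCDH18 and PCDH20 were at 100% in K562 cells and at 0% in all HCT116 lists. PCDH8 was the gene most like the clustered ones in HCT116 cells, at 100% in bulk and at 0% in the other 8 lists, but it was at 100% in K562 cTSA-seq. Median percentages over the list were 0% in each HCT116 list and 100% in K562 cTSA-seq, and the median over all genes was 0% in each of these lists.

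The genes that act on or with the clustered protocadherins were counted beside the same shares of all genes (11.5% in bulk HCT116 cells, 17.4% in 90m G1, 55.0% in the K562 nonLAD list), and with so few genes in each list the counts do not set these genes apart from that background. Of 17 regulators of promoter choice, among them CTCF, subunits of cohesin and DNA methyltransferases, 1 was inside in bulk HCT116 cells and 0 in the 8 conditions other than bulk and 90m G1, and 10 were in the K562 nonLAD list. The gene inside in bulk cells was RAD21, a cohesin subunit, at 100%, and it was at 100% in 90m G1 as well. Of 11 cytoplasmic partners, kinases and members of the WAVE complex that remodels actin, 2 were inside in bulk cells and 3 in 90m G1. These were RET, a receptor kinase, at 100% and CYFIP2, a WAVE subunit, at 82.5% in bulk, and PTK2, a focal adhesion kinase, CYFIP2 and BRK1, another WAVE subunit, at 100% in 90m G1. In no other of the 10 conditions was a partner at least 50% inside, and NCKAP1, also of the WAVE complex, was at 100% in the K562 TSA-seq list.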

How the data were processed

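The authors aligned reads to hg19 with Bowtie2 2.3.2, counted them in windows with bedtools 2.26.0 after removal of duplicates, scaled libraries to equal totals, and called regions on the z-scored log2 ratio of pull-down to input with a Hidden Markov Model of 3 states. The calls of replicates were then intersected, and the cell cycle data were called in the same way. Each deposited list gives only the chromosome, first and last base of called regions. Of 14 lists, 10 belong to a condition and 4 set K562 cTSA-seq beside TSA-seq data. All region borders lay on windows of 100 kb except 38, of which 36 were the ends of hg19 chromosomes and 2 lay off the chromosomes and were left out.

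Genes of GENCODE release 44 on hg19 were counted when at least 50% of the gene span was inside regions. Flanks were 2 Mb on each side. Sequence and composition came from the GRCh37 genome, and words of 8 letters were searched in 250 bases before each gene start. The overlap procedures were tested on simulated regions. Since each condition has 1 list, no test was run. Members, gene lists and settings were chosen with earlier results of these data known. Genes named are the first and last of each group, the C-type members, the nearest neighbours, and genes of the fixed lists whose calls differ between lists. Genes named outside this rule, such as those sharing a pattern with members, were chosen after their values were seen. Alternatives were other overlap requirements, gaps joined, regions trimmed, first exons and other flanks. Python 3.11.15, numpy 2.4.6 and matplotlib 3.10.9 were used. A result for 1 listed gene is not reported here.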

Additional observations from a re-analysis of the deposited data

How the results depend on the processing

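Of 168 values under other settings, 152 stayed within 1.5 times the value reported for counts or within the 95% Wilson interval over windows for percentages, an interval that is wide for a cluster of 8 windows. Many of the 152 set 0 beside 0, where a list had no region at the cluster or no gene of a gene list inside. These settings could not change such values, so the total is no measure of stability. With 1 window trimmed from each side of a region, the members in bulk HCT116 cells fell to 31, and the region of 50k cells, which is 2 windows long, vanished by construction, with 0 members and 0% of the cluster. With the same trimming the 200k list held 11 members and 13.8% of the cluster, against 41.3% untrimmed, and the bulk list 82.6%. At least 1 base of the cluster was in 3 of the 10 lists, and at least 50%, 80% or the whole of it in 1. In bulk cells the flank percentage was 3.66% with flanks of 1 Mb, against 1.83% with 2 Mb. With flanks of 5 Mb, which reach the nearest other regions, the flank percentage was 26.1% in bulk, 15.0% with 1e6, 22% with 200k and 22% with 50k cells, 16.3% in 90m G1, 19.0% in 180m G1, 20.0% in G1, 23% in S, 20.0% in G2 and 29.0% in K562 cells. In the K562 nonLAD list it was 76.3% with flanks of 1 Mb and 35.0% with 5 Mb. No paired analysis was possible because the lists are merged over replicates, and for the same reason no replicate could be left out. Without depth, a window near the calling threshold cannot be told from one far below it.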

Other observations

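Genes of the cluster that are not counted among the protein-coding members lay in the same windows. The span also holds the pseudogenes PCDHA14, PCDHB17P, PCDHB18P, PCDHB19P, PCDHGB8P and PCDHGB9P and the noncoding RNA gene PCDHB1-AS1, which GENCODE does not class as protein-coding. Of the 4 protein-coding genes inside the span that are not members, 4 were in the bulk HCT116 list, 3 in the 200k and 50k lists, and 0 in the other 7 conditions. Among them, ENSG00000279983 overlapped the members PCDHB14 and PCDHB15. AC005609.1, on the minus strand among the alpha genes, was in the bulk list only, as were the alpha genes around it.

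Genes outside the cluster with the pattern of the alpha and gamma genes, in the bulk HCT116 list and in no other condition, numbered 241 and lay on 21 chromosomes. The cluster gave 37 of the 278 genes with this pattern, all from 1 region.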
